A study of Homo sapiens with 4 samples.

Results

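The genes described here are 58 interferon-stimulated genes (ISGs), whose RNA was counted in IMR90, normal human lung fibroblasts, with and without siRNAs against HMGB1. They were taken by symbol from a written list, on primary chromosomes, and all 58 matched 1 identifier each among the 63677 genes counted. The list holds 35 antiviral effectors, 6 genes of the ubiquitin-like ISG15 system, 4 genes of the PARP group (DTX3L included, as the partner of PARP9), 4 transcription factors, 6 TRIM and nuclear body genes and 3 guanylate-binding proteins (GBPs).

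The RNA-seq data comprised 2 control and 2 HMGB1 knockdown libraries. In each group 1 library came from the isolate I90-10 and 1 from the isolate I90-79. Control cells carried a non-targeting siRNA and knockdown cells carried siRNAs against HMGB1, and cells of both groups were at passage 5, were transfected with the same lipid reagent and were harvested after 72 h. Both groups thus share exposure to siRNA and reagent, and no untransfected cells or interferon-treated cells were analysed here. Each library is a bulk population, so fewer cells expressing a gene and less RNA per cell cannot be told apart.

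Interferons are secreted proteins that cells release on sensing viral or misplaced nucleic acid. Type I interferons bind receptors that activate the kinases JAK1 and TYK2, which lead to a complex with STAT2 and IRF9 that binds interferon-stimulated response elements (ISREs) in the promoters of ISGs. Interferon-γ acts mainly through a different element (GAS), and GBPs are among the genes it induces most strongly. Many ISGs also have low activity in cells that have met no interferon.

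The depth ran from 29861687 to 35317010 counted reads a library. HMGB1 itself checked the labels. Its level was 181 and 237 CPM (the share of a library's reads, scaled by TMM factors and given as counts in 1e6 reads) in the control libraries and 16.0 and 18.9 CPM in the knockdown libraries, 12.0-fold lower (log2-fold change −3.59 ± 0.19 SE, edgeR adjusted p = 0.00751). All 10 fibroblast markers checked passed the filter on low counts, with COL1A1 between 5665 and 12559 CPM. Some of them moved with the knockdown in the fit with a replicate block described below (LUM rose, log2-fold change 0.83 and adjusted p = 0.00294, and THY1 and PDGFRB fell, −0.99 and −0.68 with adjusted p = 0.000311 and 0.00265), and 7 of the 10 were not called, while RUVs with DESeq2 called 4 of them up and 0 down. Of 11 markers of epithelial, endothelial and blood cells, 9 had from 0 to 5 counts in every library and KRT5, CDH5, CD3E, MS4A1 and LYZ were at 0, while EPCAM lay between 0.461 and 0.681 CPM. The endothelial marker VWF moved with the knockdown, from 1.36 and 0.923 CPM in control to 4.16 and 2.59 CPM. The 11 markers summed to 1.47 to 2.18 CPM in control and 3.27 to 4.99 CPM in knockdown libraries, and the part of VWF and of the fibroblast markers in the results below was not tested.

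Because ISGs share a promoter element, its letters were looked for first. An ISRE-like word, GAAA followed by any 2 bases and GAAA, was searched on both strands of the 300 bases from 250 before to 50 after the start of each gene in RefSeq (GRCh38.p14). A promoter was found for 46 of the 58 genes, and the 12 without one were IFIT2, IFITM2, OAS2, OASL, MX2, ZNFX1, USP18, UBA7, IRF7, TRIM22, PML and GBP2. The word was present in 31 of 46 promoters (67.4%), against 4.38% of the 27305 genes with a promoter in the table. With a stricter word, GAAAC followed by any base and GAAA, the shares were 52.2% and 0.941%. These words overlap each other, and a match is only a match of letters.

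The windows below show the word, in capitals, for genes that come up repeatedly in the results. Each is given 5′ to 3′ along the gene's own strand, with its GRCh37 (hg19) position, found by exact match, and with the place of its first base relative to the RefSeq start. Words on the opposite strand read as TTTC, 2 bases and TTTC. The first 6 belong to genes whose RNA was higher in both knockdown libraries, and each of these windows has at most 6 bases in an annotated exon.
IFIT1 (chr10:91152249-91152308, + strand, first base at −131): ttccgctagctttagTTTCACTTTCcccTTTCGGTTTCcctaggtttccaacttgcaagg
IFIT3 (chr10:91087583-91087642, + strand, first base at −171): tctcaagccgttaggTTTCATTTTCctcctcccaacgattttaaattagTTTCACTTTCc
ISG15 (chr1:948749-948808, + strand, first base at −128): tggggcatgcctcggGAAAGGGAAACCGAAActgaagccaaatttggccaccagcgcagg
HERC5 (chr4:89378130-89378189, + strand, first base at −140): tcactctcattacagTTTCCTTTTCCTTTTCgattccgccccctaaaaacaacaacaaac
IFI6 (chr1:27998815-27998874, − strand, first base at −171): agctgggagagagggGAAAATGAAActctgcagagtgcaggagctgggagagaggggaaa
SAMD9 (chr7:92747384-92747443, − strand, first base at −151): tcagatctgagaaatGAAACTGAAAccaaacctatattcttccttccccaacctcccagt
The same letters stand before a gene that was higher and before a pair of genes that were lower after the knockdown. These 3 are cut to 30 bases because exons of other annotated transcripts (RSAD2, GBP1, and for BST2 the neighbours BISPR and MVB12A) run across them.
RSAD2 (chr2:7017756-7017785, + strand, first base at −152): tttcaacTTTCAGTTTCacatgtggaaaaa
BST2 (chr19:17516547-17516576, − strand, first base at −137): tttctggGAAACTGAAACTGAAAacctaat
GBP1 (chr1:89530996-89531025, − strand, first base at −134): gaagtacTTTCAGTTTCatattactctaaa

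Genes of either direction held the word. Rises and falls here are those called in the fit with a replicate block described below. Of the genes with a promoter in the table, the word was present in 12 of 15 that rose and 2 of 3 that fell. It was present in 16 of 27 that passed in neither direction. By class it was present in 22 of 29 effectors, 2 of 4 genes of the ISG15 system, 4 of 4 of the PARP group, 0 of 3 transcription factors, 1 of 4 TRIM and nuclear body genes and 2 of 2 GBPs. A GAS-like word, TTC followed by any 3 bases and GAA, which was looked for after the counts had been seen, was present in 14 of the 46 promoters (30.4%) and in 9.38% of all genes in the table.

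Most ISGs stood higher after HMGB1 knockdown. A smaller set, with GBP1, GBP2, TRIM22 and BST2, stood lower, by most measures below in no larger share than among all genes. Of 57 genes that passed the filter on low counts, 42 had a positive and 15 a negative log2-fold change, and their median was 0.41 against −0.0054 over the 15398 genes tested. The gene that did not pass was RTP4, with 8 and 6 counts in control and 4 and 5 in knockdown libraries. The ratio was above 1 in both isolates for 39 genes, below 1 in both for 11 and in opposite directions for 7. Over all 15398 genes tested these counts were 5987, 6071 and 3340. Both knockdown libraries lay above both control libraries for 36 genes (63.2%), below them for 10 (17.5%), and the groups overlapped for 11. Over all genes tested, 29.8% lay wholly above and 30.2% wholly below, so the share wholly below was smaller among the listed genes.

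The direction of single genes was tested with edgeR, with p adjusted over all 15398 genes. A gene was called where the adjusted p was below 0.01 and the log2-fold change was beyond 0.6 in either direction. Without a term for the isolate, 0 of the 57 genes were called in either direction, and over all genes 0.0649% were called up and 0.136% down. The unadjusted p was below 0.05 for 26 higher (45.6%) and 8 lower (14.0%) of the 57 genes, beside 13.6% and 14.7% of all genes, so the share that was lower was near the background. At an adjusted p below 0.05, 15 of the 57 genes were called up and 1 (TRIM22) down, beside 3.73% and 4.34% of all genes. Without 1 library, which leaves 1 in its group, the median log2-fold change of these genes was 0.36 to 0.46.

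A fit that takes the isolate as replicate block compares each knockdown library with the control library of the same isolate. In it, 17 of the 57 genes (29.8%) rose and 6 (10.5%) fell, beside 6.68% and 7.84% of all genes. The genes that rose were IFIT1, IFIT2, IFIT3, IFI6, IFI44, OAS3, OASL, MX1, RSAD2, SAMD9, PLSCR1, ISG15, HERC5, HERC6, PARP12, STAT2 and TRIM25, and those that fell were BST2, XAF1, UBA7, TRIM22, GBP1 and GBP2. The study's methods name RUVs followed by DESeq2 without the number of factors, and 1 factor was chosen here. RUVs with DESeq2 called 17 up and 3 down, beside 4.96% and 5.38% of all genes. It shared 20 calls with the block, all in the same direction, and BST2, XAF1 and UBA7 were called with the block only. In what follows, "rose" and "fell" refer to the test with the replicate block. Log2-fold changes and SEs are from edgeR without an isolate term, unless another setting is named. An SE is the size of the log2-fold change divided by the square root of the F statistic. Counts by class are to be read against its shares over all genes, 6.68% up and 7.84% down. With 2 libraries a group, p-values measure the spread between these libraries alone, with dispersion shared across genes. An exact permutation test that ignores the isolates could not go below 0.333, and a paired test could not go as low.

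**Figure D1:**
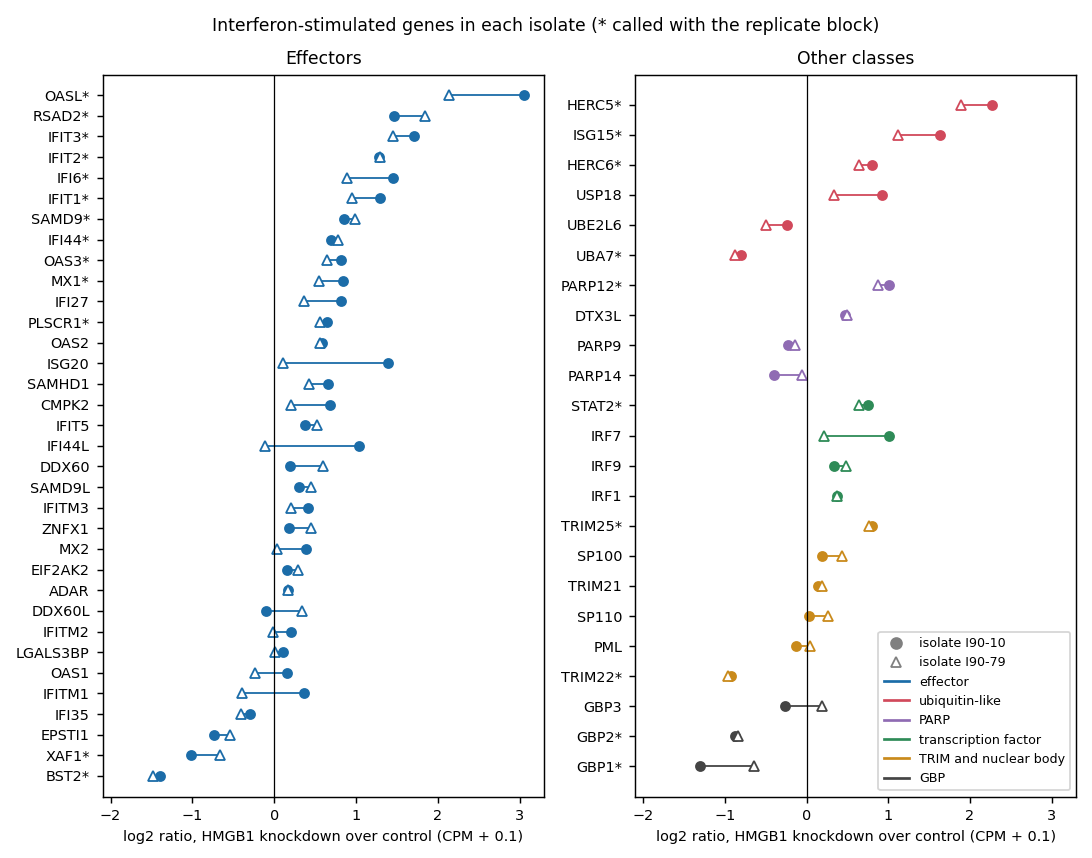
Log2 ratio of the knockdown library over the control library of the same isolate (0.1 CPM added to each) for the 57 genes tested, with effectors on the left and the other classes on the right. Filled circles are isolate I90-10, open triangles are isolate I90-79, and an asterisk marks the 23 genes called with the replicate block, whose isolates lie on the same side of 0.

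The effectors, the proteins that act on viral RNA, entry or release, form the largest class. Of 34 tested, 28 had a positive and 6 a negative log2-fold change, with a median of 0.45. Of these effectors, 11 rose (32.4%) and 2 fell (5.88%), beside 6.68% and 7.84% of all genes. OASL, a relative of the oligoadenylate synthetases that lacks their enzyme activity, had 3.37 and 5.37 CPM in the control libraries (I90-10 first, as throughout) and 28.8 and 23.9 CPM in the knockdown libraries. Both knockdown libraries were several times as high as either control library. The increase was 5.99-fold (log2-fold change 2.58 ± 0.27 SE, edgeR adjusted p = 0.0131, and 0.000144 with the block).

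The IFIT proteins bind foreign RNA at its 5′ end and hold it back from translation. IFIT3, which stabilises IFIT1, had 40.2 and 47.9 CPM in control and 131 and 131 CPM in knockdown libraries, 2.97-fold higher (log2-fold change 1.57 ± 0.13 SE, edgeR adjusted p = 0.0104, and 6.44e-05 with the block). IFIT2 had 24.99 and 24.5 CPM in control and 60.8 and 60.4 CPM in knockdown libraries, a 2.45-fold difference (log2-fold change 1.29 ± 0.11 SE, edgeR adjusted p = 0.0104, and 0.000104 with the block). IFIT1, which recognises RNA without a methylated cap, had 57.4 and 69.1 CPM in control and 141 and 134 CPM in knockdown libraries. It was 2.17-fold higher (log2-fold change 1.12 ± 0.13 SE, edgeR adjusted p = 0.0168, and 0.000291 with the block). For these 3 genes the libraries of a group lay close together and far from those of the other group. The remaining member of the family, IFIT5, had a log2-fold change of 0.46 ± 0.15 SE and missed the threshold with the block (adjusted p = 0.0113).

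RSAD2 (viperin), which makes a nucleotide that stops viral RNA synthesis, was scarce, at 1.09 and 0.814 CPM in control and 3.19 and 3.17 CPM in knockdown libraries. Its increase was 3.35-fold (log2-fold change 1.74 ± 0.30 SE, edgeR adjusted p = 0.0340, and 0.00290 with the block). IFI6, a small membrane protein, had 58.5 and 63.6 CPM in control and 160.0 and 118 CPM in knockdown libraries, so that the isolates differed in size but not in direction. It was 2.27-fold higher (log2-fold change 1.19 ± 0.18 SE, edgeR adjusted p = 0.0256, and 0.000609 with the block), and 16.4% of the 50-base pieces of its transcripts occur in those of other genes.

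The other 5 effectors that rose had log2-fold changes between 0.60 and 0.93. They were SAMD9, a cytoplasmic antiviral factor (0.93 ± 0.14 SE), IFI44 (0.74 ± 0.13 SE), OAS3, an oligoadenylate synthetase (0.73 ± 0.12 SE), MX1, a dynamin-like GTPase that traps viral nucleoproteins (0.71 ± 0.18 SE), and PLSCR1, a membrane scramblase (0.60 ± 0.11 SE). PLSCR1 stood at the edge of the threshold on size, and SAMHD1, a deoxynucleotide triphosphatase, lay just under it with a log2-fold change of 0.55 and a block adjusted p of 0.00576. Without 1 library, the log2-fold change was 0.52 to 0.88 for MX1 and 0.57 to 0.64 for PLSCR1. It was 0.79 to 1.05 for SAMD9, 0.68 to 0.79 for IFI44 and 0.65 to 0.82 for OAS3. Over the 7 other settings that kept all 4 libraries, the highest adjusted p was 0.0106 for IFIT2 and IFIT3, 0.0140 for OASL, 0.0174 for IFIT1, 0.0257 for IFI6 and 0.0338 for RSAD2.

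BST2 and XAF1 were the effectors that fell. BST2 (tetherin), which holds budding virions at the cell surface, had 3.17 and 1.79 CPM in control and 1.14 and 0.576 CPM in knockdown libraries. It was 2.88-fold lower, with a wide error (log2-fold change −1.52 ± 0.48 SE, edgeR adjusted p = 0.117, and 0.00714 with the block). XAF1, a proapoptotic binding partner of XIAP, had 13.2 and 8.68 CPM in control and 6.47 and 5.44 CPM in knockdown libraries (log2-fold change −0.87 ± 0.26 SE, edgeR adjusted p = 0.107, and 0.00674 with the block). For both genes I90-10 was higher than I90-79 in either group. The adjusted p reached 0.242 for BST2 and 0.146 for XAF1 under the other settings with all 4 libraries. Without the control library of I90-10 the log2-fold change was −1.06 for BST2 and −0.55 for XAF1, and without the knockdown library of I90-79 it was −1.10 for BST2. EPSTI1, a further effector, had a log2-fold change of −0.65 ± 0.20 SE and a block adjusted p of 0.0219.

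Several effectors with high levels passed no threshold. IFITM3, which blocks the fusion of viruses with endosomes, had the highest level per length of all 58 genes, a mean of 264 RPKM (CPM divided by the exonic length in kilobases) in control libraries. It had 367 and 344 CPM in control and 488 and 397 CPM in knockdown libraries (log2-fold change 0.32 ± 0.15 SE, edgeR adjusted p = 0.244, and 0.0475 with the block), and 21.3% of its exonic bases overlap a gene on the opposite strand. IFITM1 and IFITM2 had log2-fold changes of −0.03 and 0.11, and both share exonic bases with a neighbouring annotation (32.5% and 26.9%). ADAR, which edits double-stranded RNA, had a log2-fold change of 0.17 ± 0.13 SE at 49.9 RPKM in control. The group of double-stranded RNA enzymes and helicases (EIF2AK2, ADAR, DDX60, DDX60L and ZNFX1) had 0 genes called with the block in 5, with log2-fold changes from 0.13 to 0.41. Whether reads of antisense neighbours were counted with a gene cannot be told apart here, as the strand setting of the counting is not given in the sources used here.

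**Figure D2:**
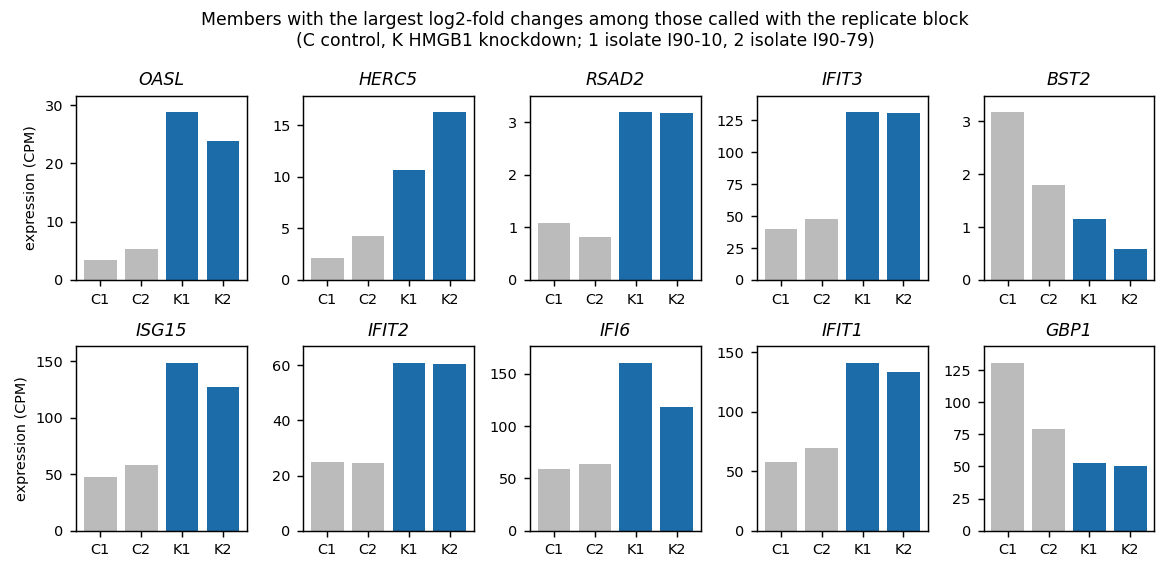
CPM in each library for the 10 genes with the largest absolute log2-fold change among those called with the replicate block, control in grey and knockdown in blue, with 1 bar a library and no error bars. OASL rises from 3.37 and 5.37 to 28.8 and 23.9 CPM, while BST2 and GBP1 are lower in both knockdown libraries than in either control library.

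The 6 genes listed under the ISG15 system encode the tag ISG15, enzymes that attach or remove it, and HERC6, placed here as a relative of HERC5. They moved in both directions. Their median log2-fold change was 0.68, with 3 that rose and 1 that fell, and they held both the large increase of HERC5 and the decrease of UBA7. ISG15 had 47.9 and 58.4 CPM in control and 148 and 127 CPM in knockdown libraries, 2.59-fold higher (log2-fold change 1.37 ± 0.15 SE, edgeR adjusted p = 0.0148, and 0.000252 with the block). HERC5, the main ligase that joins ISG15 to its targets, had 2.14 and 4.31 CPM in control and 10.7 and 16.3 CPM in knockdown libraries, 4.15-fold higher (log2-fold change 2.05 ± 0.40 SE, edgeR adjusted p = 0.0440, and 0.000161 with the block). In both genes the lower knockdown library was well above the higher control library. HERC6, the neighbour and relative of HERC5, rose with a log2-fold change of 0.73 ± 0.14 SE.

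UBA7, the enzyme that activates ISG15 at the head of the pathway, fell. It had 36.4 and 26.2 CPM in control and 20.9 and 14.3 CPM in knockdown libraries (log2-fold change −0.83 ± 0.25 SE, edgeR adjusted p = 0.108, and 0.00104 with the block). UBE2L6, the conjugating enzyme that receives ISG15 from UBA7, had a log2-fold change of −0.35 ± 0.17 SE and a block adjusted p of 0.0321. USP18, which removes ISG15 and restrains the type I receptor, had a log2-fold change of 0.64 ± 0.20 SE and a block adjusted p of 0.0260, and 11.8% of its 50-base pieces occur in other genes. ISG15, HERC5 and HERC6 thus stood higher, and UBA7 and UBE2L6 lower, in both isolates. The highest adjusted p under the other settings with all libraries was 0.0150 for ISG15, 0.0445 for HERC5 and 0.109 for UBA7. The log2-fold change of HERC5 was 2.65 without the control library of I90-79 and 1.64 without that of I90-10. Leaving out the I90-10 control library or the I90-79 knockdown library gave a log2-fold change of −0.58 for UBA7.

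In the PARP group, whose enzymes attach ADP-ribose to proteins, 1 of 4 genes rose and none fell, and the median log2-fold change was 0.15. PARP12 had 14.0 and 16.4 CPM in control and 28.4 and 30.2 CPM in knockdown libraries, and the groups were well apart. The log2-fold change was 0.94 ± 0.15 SE (edgeR adjusted p = 0.0274, 0.000726 with the block and at most 0.0282 under the other settings with all 4 libraries). DTX3L, a ubiquitin ligase that works in a complex with PARP9, had 65.4 and 59.1 CPM in control and 90.4 and 83.4 CPM in knockdown libraries. At 0.48 ± 0.12 SE, its log2-fold change was under the threshold on size (edgeR adjusted p = 0.0698, and 0.00658 with the block).

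PARP9 and DTX3L start head to head on chromosome 3. The ISRE-like word of their promoters is the same stretch of bases, read on opposite strands and counted above for each gene. PARP9 had 38.2 and 29.99 CPM in control and 32.8 and 27.1 CPM in knockdown libraries, and the groups overlapped (log2-fold change −0.19 ± 0.18 SE, block adjusted p = 0.210). PARP14, the remaining gene of the group, had a log2-fold change of −0.22 ± 0.13 SE and a block adjusted p of 0.159.

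All 4 transcription factors had a positive log2-fold change, with a median of 0.50, and 1 of them rose. STAT2, a subunit of the complex that binds ISREs, had 115 and 94.9 CPM in control and 194 and 148 CPM in knockdown libraries. I90-10 was higher than I90-79 in both groups, and the groups did not overlap. The log2-fold change was 0.70 ± 0.18 SE (edgeR adjusted p = 0.0748, 0.00113 with the block and at most 0.0737 under the other settings with all 4 libraries). Without 1 library, the log2-fold change of STAT2 ranged from 0.50 to 0.89. IRF9, the DNA-binding subunit of the same complex, was scarce, with a mean of 2.31 CPM in control, and had a log2-fold change of 0.42 ± 0.28 SE, while 48.4% of its exonic bases overlap other genes. IRF1 and IRF7, regulators that ISG promoters also answer to, had log2-fold changes of 0.37 ± 0.11 SE and 0.58 ± 0.27 SE, and neither passed with the block (adjusted p = 0.0199 and 0.0674).

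Among the TRIM and nuclear body genes, TRIM25 rose and TRIM22 fell by amounts of similar size. TRIM25, a ubiquitin ligase that activates the RNA sensor RIG-I, had 131 and 155 CPM in control and 229 and 264 CPM in knockdown libraries. It was higher by a log2-fold change of 0.78 ± 0.15 SE (edgeR adjusted p = 0.0406, 0.000579 with the block and at most 0.0408 under the other settings with all 4 libraries). TRIM22, an antiviral ligase, had 107 and 95.1 CPM in control and 56.4 and 48.7 CPM in knockdown libraries, with a log2-fold change of −0.95 ± 0.13 SE (edgeR adjusted p = 0.0226, 0.000309 with the block and at most 0.0230 under the other settings). In both genes the groups were clearly apart in either isolate, and 10.6% of the exonic bases of TRIM22 overlap another gene. SP100, SP110 and PML, which build nuclear bodies, and TRIM21, a cytosolic antibody receptor, had log2-fold changes of 0.31, 0.15, −0.05 and 0.17, and none was called. The median of the class was 0.16.

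The GBPs were the class with the lowest median, −0.86, and 2 of its 3 genes fell. GBP1, a large GTPase that coats vacuoles and bacteria, had 130.4 and 79.2 CPM in control and 52.9 and 50.5 CPM in knockdown libraries. The control libraries of the isolates differed far more than the knockdown libraries. The log2-fold change was −1.02 ± 0.25 SE, a 2.02-fold decrease (edgeR adjusted p = 0.0677, 0.00215 with the block and at most 0.0684 under the other settings with all 4 libraries). Without the control library of I90-10 it was −0.62 for GBP1 and −0.65 for GBP2, and 7.76% of the 50-base pieces of GBP1 transcripts occur in other genes, mainly GBP1P1.

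GBP2, a related GTPase, had 86.6 and 65.5 CPM in control and 47.2 and 36.7 CPM in knockdown libraries (log2-fold change −0.86 ± 0.20 SE, edgeR adjusted p = 0.0610, and 0.000514 with the block). Its 2 groups did not overlap, and 9.89% of its exonic bases overlap another gene on the same strand. GBP3, the third of the class, gave no call. It had 57.9 and 46.2 CPM in control and 48.3 and 52.8 CPM in knockdown libraries, a log2-fold change of −0.04 ± 0.15 SE that was of opposite sign in the isolates.

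**Figure D3:**
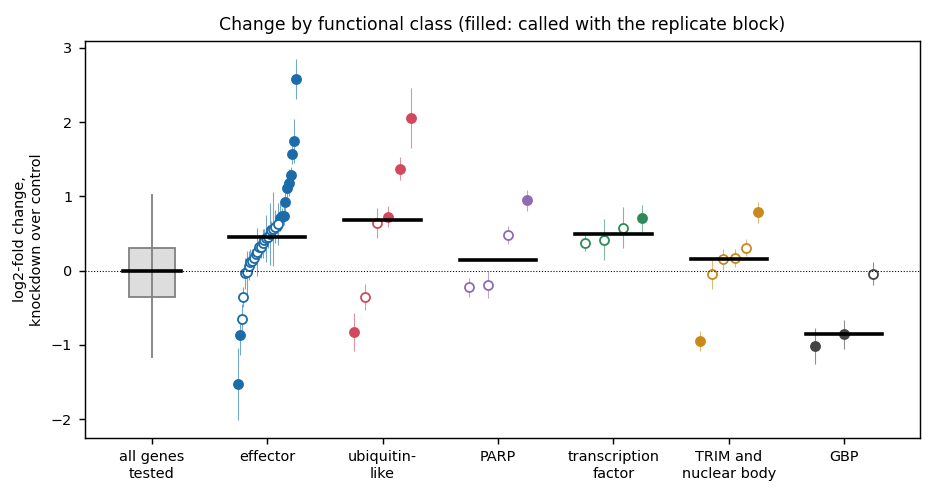
Log2-fold change of the knockdown over control for each gene by functional class, with lines of ± 1 SE, filled circles for genes called with the replicate block and a black bar at the class median. The box runs from the lower to the upper quartile (−0.36 and 0.30) of all 15398 genes tested and its whiskers the 5th and 95th percentiles (−1.16 and 1.02), and the class medians run from −0.86 for GBPs to 0.68 for the ISG15 system.

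The levels of the 58 genes per length spanned a wide range without HMGB1 knockdown, from 0.104 RPKM for CMPK2 to 264 RPKM for IFITM3, with a median of 5.77 RPKM. The next levels after IFITM3 were 74.8 RPKM for ISG15, 72.0 RPKM for IFITM2, 70.6 RPKM for IFI6 and 61.4 RPKM for LGALS3BP, a secreted glycoprotein. ISG15 and IFI6 rose from this upper range, and OASL, HERC5 and RSAD2, with the largest fold changes, started from 1.87, 0.678 and 0.197 RPKM. The genes that fell started from between 1.64 RPKM (XAF1) and 20.99 RPKM (GBP1). The summed CPM of the 58 genes was 3207 and 2987 in control and 4069 and 3760 in knockdown libraries, with no overlap. For the GBPs the sum was 275 and 191 in control and 148 and 140.0 in knockdown libraries.

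**Figure D4:**
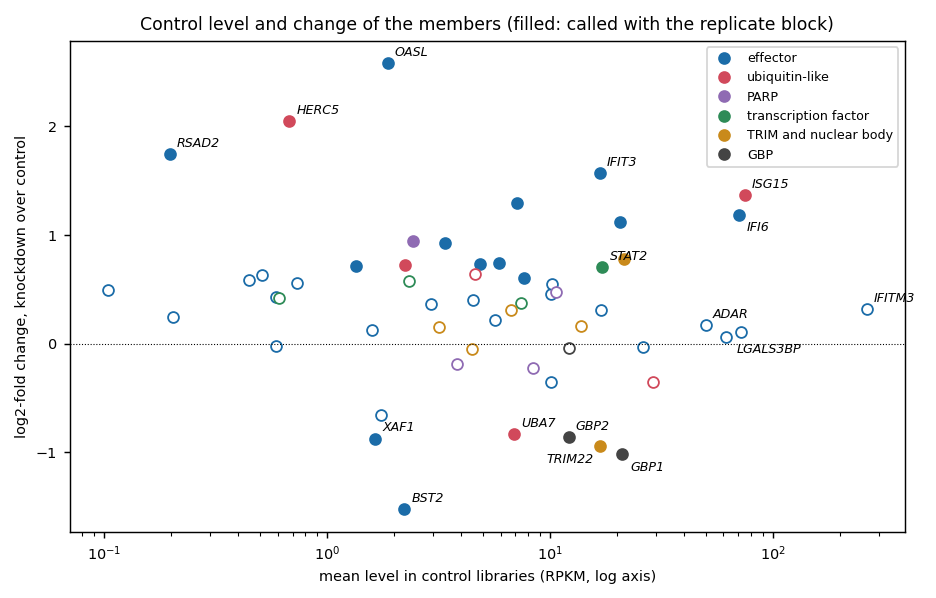
Mean RPKM in the control libraries (log axis) against the log2-fold change for the 57 genes tested, coloured by class, with filled circles for genes called with the replicate block. Genes that rose are found from 0.197 RPKM (RSAD2) to 74.8 RPKM (ISG15), and the highest, IFITM3, was not called.

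Many of these genes lie side by side, so their position was set against their change. Within 100 kb of another listed gene lay 27 of the 58, in 11 clusters. Of these clusters, 7 held a gene that rose and none that fell, 1 held genes that fell and none that rose, 3 held no call and 0 held both. Only the IFIT, HERC and GBP clusters held more than 1 called gene, so no other cluster could have held both. The cluster that fell was GBP3, GBP1 and GBP2 (chr1:89472349-89616139). The IFIT cluster (chr10:91061712-91180758) held 3 genes that rose, and its other gene, IFIT5, was 1.11 lower in log2-fold change than IFIT3.

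Neighbours often differed in size. On chromosome 2, RSAD2 rose with a log2-fold change of 1.74, while the adjacent CMPK2, a nucleotide kinase, was near the limit of counting at 0.374 and 0.516 CPM in control and 0.658 and 0.608 CPM in knockdown libraries. On chromosome 4, HERC5 exceeded HERC6 by 1.33 in log2-fold change. In the OAS cluster (chr12:113344582-113449528), OAS3 rose (0.73), OAS2 had 0.59 ± 0.23 SE and a block adjusted p of 0.0709, and OAS1 had −0.03 ± 0.29 SE. The differences between neighbours were not tested.

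**Figure D5:**
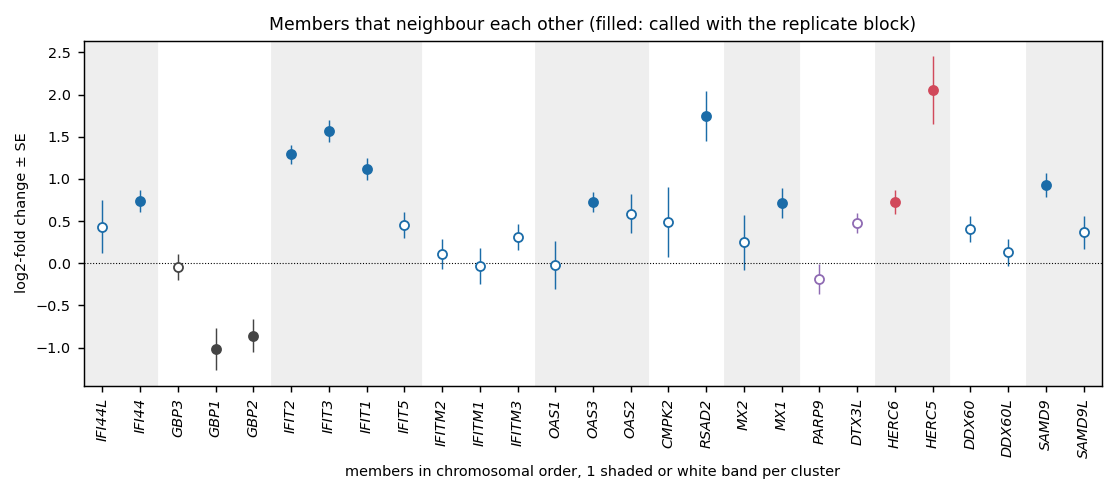
Log2-fold change ± SE of the 27 genes that lie within 100 kb of another listed gene, in chromosomal order, with 1 shaded or white band for each of the 11 clusters and filled circles for genes called with the replicate block. Only the IFIT, HERC and GBP bands hold more than 1 filled gene, and within each of them these point the same way. The only band with filled genes below 0 is that of GBP3, GBP1 and GBP2.

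The genes upstream of ISGs were read from a separate list of 38 ligands, receptors and signalling genes, of which 15 passed the filter on low counts. Interferon genes themselves were close to undetected. Of 21 ligand genes, 17 were at 0 in all libraries and 20 had at most 1 count in total. IFNB1, the type I interferon of fibroblasts, had 0 and 1 counts in control and 0 and 0 in knockdown libraries, where 3 counts correspond to 0.0814 to 0.104 CPM (a limit that covers counting error only). The exception was IFNE, an epithelial interferon, with 7 and 6 counts in control and 16 and 10 in knockdown libraries, so that both knockdown libraries lay above both control libraries, but these counts did not pass the filter and the difference was not tested. For the other 20 ligand genes a difference between the groups was not detectable at this depth.

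The receptors were present and passed no threshold. Of 6 receptor genes, 5 were tested, with log2-fold changes from −0.15 (IFNGR2) to 0.02 (IFNGR1), and IFNLR1, of the interferon-λ receptor, had 0 to 3 counts. Of 11 signalling genes 10 were tested and 0 were called by edgeR. With the replicate block 2 rose and 2 fell (20% each), beside 6.68% and 7.84% of all genes. Over the 38 genes the median of those tested was −0.04.

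JAK2, a kinase of the interferon-γ receptor, had 19.8 and 24.4 CPM in control and 38.4 and 47.4 CPM in knockdown libraries, and the groups did not overlap (log2-fold change 0.95 ± 0.17 SE, edgeR adjusted p = 0.0382, and 0.000423 with the block). SOCS3, a feedback inhibitor of cytokine receptors, had 69.1 and 117 CPM in control and 197 and 208 CPM in knockdown libraries (log2-fold change 1.12 ± 0.26 SE, edgeR adjusted p = 0.0604, and 0.00103 with the block). Both rose, and the isolates were closer to each other after the knockdown in SOCS3.

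IRF2, a repressor that competes with IRF1, and SOCS1, the feedback inhibitor of interferon receptors, fell. IRF2 had 32.2 and 31.3 CPM in control and 17.2 and 21.1 CPM in knockdown libraries (log2-fold change −0.73 ± 0.15 SE, edgeR adjusted p = 0.0487, and 0.00311 with the block). SOCS1 had 51.4 and 27.8 CPM in control and 31.1 and 14.5 CPM in knockdown libraries, where the groups overlapped and each isolate was lower after the knockdown (log2-fold change −0.80 ± 0.45 SE, edgeR adjusted p = 0.300, and 0.00113 with the block). With RUVs and DESeq2 its log2-fold change was −0.31 and it was not called (adjusted p = 0.321).

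JAK1 and TYK2, the kinases of the type I receptor, had log2-fold changes of −0.04 and 0.14 and were not called.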

How the data were processed

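Poly(A) RNA from 4 IMR90 libraries was sequenced by the authors, mapped to hg19 with STAR, and unique reads were counted per gene with featureCounts (names also per the labels, versions and strand setting not given in the sources used here). The deposited files hold raw counts per gene and the exonic length of each gene (other, in bases), without normalization. Counts were tested in R 4.3.3 with edgeR 4.0.16 (limma 3.58.1; filterByExpr, 15398 genes, TMM, quasi-likelihood F test with legacy deviances, Benjamini-Hochberg adjustment) on all 4 libraries without an isolate term. The labels give replicate 1 of both groups the isolate I90-10 and replicate 2 the isolate I90-79, so the numbers pair the libraries, and the differences between replicates had a correlation of 0.593 between the groups over 15398 genes. The fit with this replicate block is therefore printed beside the results. RUVs (1 factor, written out from its published description) with DESeq2 1.42.0 was an alternative, as were DESeq2 alone, its size factors in edgeR, 2 other filters, bias-adjusted deviances, other thresholds and leaving out each library. CPM and RPKM use TMM-scaled library sizes. Exon overlap comes from the exon positions deposited with the counts. Shared 50-base pieces and the exons at the promoter windows come from GENCODE lifted to GRCh37.

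The genes, classes and lists were chosen with earlier results of these data known. Values in every library are given for the 10 genes with the largest change called with the block, in each class the gene with the highest RPKM and the gene with the largest change, HMGB1, IFNB1 and called upstream genes. A gene that this rule also names is not reported here. GBP2, GBP3, UBA7, XAF1, PARP9, CMPK2, RTP4 and the called cell type markers were added after their values were seen. Scripts were tested on simulated data. The authors' table of test results was not used.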

Additional observations from a re-analysis of the deposited data

Results flagged for a closer look

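For 7 of the 57 genes tested, the knockdown and control libraries of I90-10 differed in one direction and those of I90-79 in the other. Over all genes tested this held for 3340 of 15398, a larger share. Each isolate gave 1 pair of libraries, so the difference between isolates was not tested. On the log2 scale (0.1 CPM added), the ratio in I90-10 minus that in I90-79 was 1.15 for IFI44L (1.04 and −0.11 in the isolates), 0.76 for IFITM1 (0.36 and −0.40), 0.39 for OAS1 (0.16 and −0.24) and 0.22 for IFITM2 (0.20 and −0.012). It was −0.45 for GBP3 (−0.26 and 0.19), −0.44 for DDX60L (−0.096 and 0.34) and −0.16 for PML (−0.12 and 0.037). None of these 7 genes was called by edgeR, with the block or by RUVs and DESeq2.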

How the results depend on the processing

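The number of calls depended on the model, while medians kept their sign. Without the isolate term edgeR called 0 of the listed genes up and 0 down. The calls up and down were 17 and 6 with the replicate block, 16 and 3 with DESeq2, 17 and 3 with RUVs and DESeq2, 17 and 6 without a filter on low counts, and 15 and 1 at an adjusted p below 0.05, and with bias-adjusted deviances 2 genes were called up. Leaving out 1 library gave 0 to 6 up and 0 to 2 down. For the upstream genes, with 0 and 0, the block and the fit without a filter each gave 2 and 2, DESeq2 2 and 1, RUVs 3 and 1, the threshold of 0.05 1 and 1, and leaving out a library 0 to 1 up. Over all genes, 10 up and 21 down became 1028 and 1207 with the block, 728 and 818 with DESeq2, 763 and 829 with RUVs, 1118 and 1275 without a filter, 30 and 68 with bias-adjusted deviances, 575 and 668 at 0.05, 6 up with at least 10 counts in every library, and 0 to 305 up and 0 to 337 down without 1 library. The cause was not tested. A fit with the block and 1 library left out has no residual degrees of freedom and was not run.

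The median log2-fold change of the listed genes, 0.41, was 0.36 with RUVs and 0.36 to 0.46 without 1 library. The effector median ranged from 0.39 to 0.55 without 1 library. The PARP median of 0.15 was 0.27 with RUVs and 0.069 to 0.27 without 1 library. The GBP median of −0.86 was −0.65 with RUVs and −1.05 to −0.62 without 1 library. The stricter ISRE-like word lowered the share of promoters to 52.2%.

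Signs reversed for 9 genes, none of them called. With RUVs, OAS1 (0.071), PML (0.16) and GBP3 (0.036) turned positive. Leaving out 1 library at a time gave −0.26 to 0.24 for IFITM1, −0.13 to 0.31 for IFITM2, −0.26 to 0.18 for OAS1, −0.12 to 0.55 for MX2, −0.015 to 0.26 for DDX60L, −0.016 to 1.56 for ISG20, −0.16 to 0.26 for LGALS3BP, −0.26 to 0.19 for PML and −0.19 to 0.13 for GBP3.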
